A study of Mus musculus with 3 samples.

Results

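The genes described here are 34 genes of the cytosolic ribosome, chosen by symbol from the 32285 genes of the deposited count matrices. They comprise 19 proteins of the large (60S) subunit outside the stalk, the 3 stalk proteins Rplp0, Rplp1 and Rplp2, and 12 genes of the small (40S) subunit, among them Fau and Rpsa. All 34 were found. Their unique molecular identifiers (UMIs, each counting 1 captured RNA molecule) were followed across cell classes and across 3 single-nucleus libraries of mouse hippocampus.

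Each library pooled both hippocampi of 4 mice, which were frozen and lysed with Triton X-100 to release nuclei. The mice of the control library had no treatment, those of a doxorubicin library received that drug, an anthracycline that traps topoisomerase II on DNA, and those of the remaining library received doxorubicin and ACY-1083, an inhibitor of the cytoplasmic deacetylase HDAC6. The labels give no dose, time, strain, sex or age. With 1 library per group there was no replicate, no test between groups was possible, and every ratio below compares libraries, not treatments.

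The cytosolic ribosome reads messenger RNA with its 40S subunit and forms peptide bonds in its 60S subunit, and its proteins are made in matched amounts from many scattered genes. Their mRNAs belong to the TOP class, whose 5' end is a C followed by a run of pyrimidines through which the mTORC1 pathway controls their translation. In neurons and glia most of these mRNAs are cytoplasmic, so nuclei hold newly made transcripts together with any cytoplasmic RNA that stays with them. The genes are short, have many processed pseudogene copies elsewhere in the genome, and host small nucleolar RNAs in several of their introns.

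The promoters of the 8 genes that had the 4 highest and 4 lowest ratios between the doxorubicin and control libraries show the sequence features of the family at both ends of its range. Each window below runs from 150 bases before to 10 bases after the transcription start of the RefSeq table for GRCm38.p6, on the strand of the gene. Capitals mark the ETS-type motif CCGGAAG (or CTTCCGG, its other strand), the TATA motif TATAAA (or TTTATA), and the longest run of C and T letters within 20 bases of the start where it holds at least 8 letters.
Rpl38: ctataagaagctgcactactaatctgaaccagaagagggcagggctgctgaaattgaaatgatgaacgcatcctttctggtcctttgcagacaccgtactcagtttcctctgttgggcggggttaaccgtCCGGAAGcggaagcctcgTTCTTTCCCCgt
Rplp2: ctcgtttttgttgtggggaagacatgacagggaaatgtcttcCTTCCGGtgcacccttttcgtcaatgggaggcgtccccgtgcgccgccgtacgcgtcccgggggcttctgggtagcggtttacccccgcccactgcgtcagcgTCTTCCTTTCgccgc
Rpl23: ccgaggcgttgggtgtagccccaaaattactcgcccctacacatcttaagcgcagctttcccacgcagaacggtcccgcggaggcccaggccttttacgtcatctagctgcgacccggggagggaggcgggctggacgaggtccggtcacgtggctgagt
Rpl37: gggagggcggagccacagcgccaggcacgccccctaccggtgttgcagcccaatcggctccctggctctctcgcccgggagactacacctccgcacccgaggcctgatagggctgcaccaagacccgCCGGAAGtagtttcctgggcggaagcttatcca
Rpsa: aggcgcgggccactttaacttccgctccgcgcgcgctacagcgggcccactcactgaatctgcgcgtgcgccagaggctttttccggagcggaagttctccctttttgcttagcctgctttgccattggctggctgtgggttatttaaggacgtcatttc
Rpl4: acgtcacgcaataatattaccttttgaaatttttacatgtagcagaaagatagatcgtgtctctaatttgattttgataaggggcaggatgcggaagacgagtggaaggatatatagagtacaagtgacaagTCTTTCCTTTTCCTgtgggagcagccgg
Rps2: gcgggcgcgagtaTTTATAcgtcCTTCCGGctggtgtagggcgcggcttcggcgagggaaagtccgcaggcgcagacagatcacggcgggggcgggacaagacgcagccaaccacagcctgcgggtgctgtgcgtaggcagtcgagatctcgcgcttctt
Rpl6: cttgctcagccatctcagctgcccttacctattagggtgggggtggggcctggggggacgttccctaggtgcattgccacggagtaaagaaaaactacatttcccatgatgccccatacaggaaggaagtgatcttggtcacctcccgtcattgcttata
These windows lie at chr11:114668430-114668589 (plus strand), chr7:141447501-141447660 (plus strand), chr11:97782430-97782589 (minus strand), chr15:5116463-5116622 (plus strand), chr9:120127616-120127775 (plus strand), chr9:64173237-64173396 (plus strand), chr17:24719913-24720072 (plus strand) and chr5:121204351-121204510 (plus strand). Both ends of the range hold the ETS-type motif. In the printed letters, Rpl38, Rplp2 and Rpl37 carry it among the high genes and Rps2 among the low ones. In the full 300-base windows, the low genes Rpsa and Rpl6 hold it too, outside the printed letters. A long pyrimidine run stands in Rpl38, Rplp2 and Rpl4.

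The RefSeq table held a window for 26 of the 34 genes. Both strands of the full 300-base windows were searched for each motif. CCGGAAG was in 12 of the 26 (46.2%) against 9.12% of all 27025 promoters, and it stood in 6 of the 13 genes that were over 25% higher in doxorubicin and in 6 of the other 13. The BANP motif, a palindrome centred on CGCG that many housekeeping promoters hold, was in Rpl26, Rps19 and Rps28, or 3 of 26 against 0.496% of all promoters, and each of these lies among the former 13. TATAAA was in 3 of 26 (11.5%) beside 14.2% of all, and a pyrimidine run of 8 or more on the coding strand was in 9 of 26 (34.6%) beside 15.9%. A match describes these letters and is no evidence of binding.

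The matrices held 10909, 12221 and 12192 barcodes (control, doxorubicin, doxorubicin plus ACY-1083, the order used for every set of 3 values) with 19175447, 21458785 and 62151258 UMIs, and 10455, 11647 and 11846 nuclei were kept. The doxorubicin plus ACY-1083 library stands apart from the other 2, with a median of 3912.5 UMIs per barcode against 1487 and 1485 and with 7.66% of its UMIs from the nuclear RNA Malat1 against 21.7% and 23.3%. Pairs of libraries shared 29 to 46 barcode sequences. Clusters were matched to marker lists, so a class name stands for likeness to those markers, and granule, CA1 and CA2/CA3 neurons of the hippocampus were all found. The rule for names was set after the clusters were seen, and it left 10.5%, 12.8% and 16.8% of the kept nuclei unnamed. The sources used here do not say how reads that also match pseudogene copies were treated, and the values of each gene are uncertain to that extent.

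Ribosomal protein RNA took a larger share of the doxorubicin library than of the control library. The 34 genes together had 80917, 109894 and 117109 UMIs, which is 0.446%, 0.542% and 0.197% of all UMIs and 7.74, 9.44 and 9.89 UMIs per nucleus. The doxorubicin to control ratio of the share was 1.22 (95% interval 1.21 to 1.23). It was 1.20 (1.19 to 1.22) for the 60S genes outside the stalk, 1.28 (1.24 to 1.32) for the stalk and 1.23 (1.21 to 1.247) for the 40S genes, so the intervals of the stalk and of the other 60S genes do not overlap. All intervals in this text cover counting error only and leave out the spread between mice and between preparations. The ratio was 1.20 with all classes named in both libraries, and the unnamed nuclei as a further group, weighted by their control nuclei.

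Of the 34 genes, 33 had a higher level in CPM (UMIs scaled to the library total) in doxorubicin than in control, beside 38.6% of all 13803 genes with at least 100 UMIs in these libraries. Of them, 17 were over 25% higher, as were 5.01% of all genes, and 32 had an interval wholly above 1, where 9.08% of all genes did. No member had an interval below 1, although 19.2% of all genes had. In nuclei with 1000 to 2000 UMIs, however, 1 member did, Rpl6 at 0.928 (0.873 to 0.987). The median log2 ratio was 0.32 over the 34 genes and -0.05 over all genes tested. Scaling by the median of gene ratios in place of total UMIs moved the relative size of the doxorubicin library by -0.05 on the log2 scale, and that of the doxorubicin plus ACY-1083 library against doxorubicin by -0.27, and every ratio is higher by that amount under it.

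**Figure D1:**
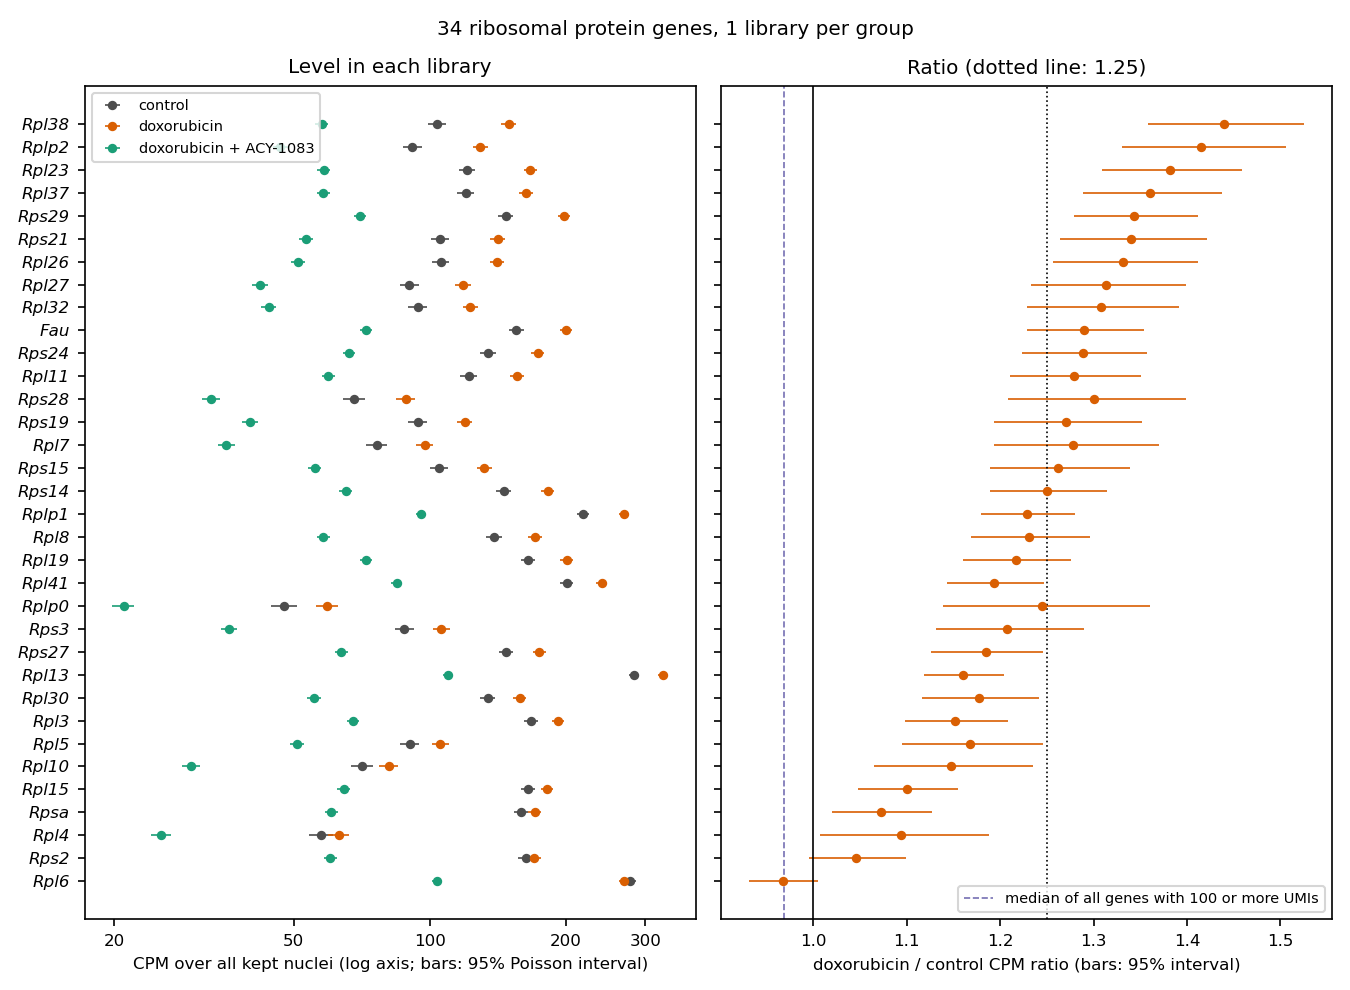
Level (left, CPM on a log axis with 95% Poisson intervals) and doxorubicin to control ratio (right, with 95% intervals) of each of the 34 genes, 1 point per library. Rpl38 at the top has a ratio of 1.44 and Rpl6 at the bottom 0.968, with the dotted line at 25% higher, and every gene has its lowest CPM in the doxorubicin plus ACY-1083 library.

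Among the 60S genes, Rpl38, a small surface protein known for its part in the translation of homeobox mRNAs, led the list. Rpl38 (chromosome 11, 114668524 to 114672331, plus strand) had 104 (99.2 to 109), 149 (144 to 155) and 57.7 (55.8 to 59.7) CPM in the 3 libraries. Its doxorubicin to control ratio was 1.44 (1.36 to 1.53). By CPM the 3 levels do not overlap, with doxorubicin highest. Per nucleus the doxorubicin plus ACY-1083 library was highest, with 180, 260 and 290 UMIs per 1000 nuclei in the 3 libraries. Rpl23 (chromosome 11, 97777527 to 97782437, minus strand), a 60S protein at the face between the subunits that also binds the p53 ligase Mdm2, had 121 (116 to 126), 167 (161 to 173) and 58.3 CPM and a ratio of 1.38 (1.31 to 1.46). Rpl37 (chromosome 15, 5116645 to 5119140, plus strand), a zinc-binding 60S protein, had 120.1 (115 to 125), 163 (158 to 169) and 58.1 CPM and a ratio of 1.36 (1.29 to 1.44). Both again had their highest CPM in the doxorubicin library, with no overlap between libraries on that scale.

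The low end of the 60S genes was Rpl6 and Rpl4. Rpl6 (chromosome 5, 121204481 to 121209241, plus strand), a protein of the 60S surface, had 278 (271 to 286), 269 (262 to 276) and 104 (101 to 106) CPM, a ratio of 0.968 (0.931 to 1.01), and so was the gene of the 34 that was not higher in doxorubicin. Its control and doxorubicin intervals overlap. Rpl4 (chromosome 9, 64173375 to 64178666, plus strand), which lines the peptide exit tunnel, had 57.5 (54.1 to 61.1), 62.9 (59.5 to 66.4) and 25.5 CPM and a ratio of 1.09 (1.01 to 1.19), which became 0.988 (0.870 to 1.12) when each nucleus was thinned to 1000 UMIs. Its control and doxorubicin levels overlap, and its direction changed with the thinning. Rpl15, Rpl10, Rpl3 and Rpl13 were also on the lower side, with ratios from 1.10 to 1.16.

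Rpl5 and Rpl11, which carry the 5S ribosomal RNA into the 60S subunit and bind Mdm2 when assembly is disturbed, lay on either side of the median of the 34. Rpl5 had 90.4 (86.1 to 94.9), 106 (101 to 110) and 50.9 (49.1 to 52.8) CPM and a doxorubicin to control ratio of 1.17 (1.09 to 1.246). Rpl11 had 122 (117 to 127), 156 (151 to 161) and 59.6 (57.7 to 61.6) CPM and a ratio of 1.28 (1.21 to 1.35). The 2 ratio intervals overlap. A chosen list of members known to bind Mdm2 (Rpl5, Rpl11, Rpl23, Rpl26, Rps3 and Rps14) had a median log2 ratio of 0.34. The list may not be complete and was chosen with earlier results of these data known, so its median need not hold for members left out. Members outside the list, Rpl6 among them, were not examined for Mdm2 binding. All 6 had intervals above 1, as did 32 of the 34 members and 9.08% of all genes. Rpl41, the smallest of the ribosomal proteins, had 201 (195 to 208), 240.2 (234 to 247) and 84.6 CPM and a ratio of 1.19 (1.14 to 1.247).

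The stalk proteins, which recruit elongation factors to the 60S subunit, were each higher in doxorubicin. Rplp2, an acidic stalk protein, had 91.4 (87.1 to 95.9), 129 (124 to 134) and 46.7 (44.97 to 48.5) CPM and a ratio of 1.41 (1.33 to 1.51). Its partner Rplp1 had 219 (212 to 226), 269 (262 to 276) and 95.6 CPM and a ratio of 1.23 (1.18 to 1.28). Rplp0, which anchors both to the ribosome, had 47.6 (44.5 to 50.9), 59.2 (55.9 to 62.7) and 21.001 CPM and a ratio of 1.24 (1.14 to 1.36). The Rplp2 and Rplp1 ratio intervals do not overlap, although the proteins act as a pair.

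Among the 40S genes, Rps29, Rps21 and Rps28 were on the high side and Rps2 and Rpsa on the low side. Rps29, a zinc-binding protein of the 40S head, had 147, 198 and 70.0 CPM and a ratio of 1.34. Rps28 had 68.0 (64.3 to 71.9), 88.4 (84.4 to 92.6) and 32.8 CPM and a ratio of 1.30 (1.21 to 1.40). Rps19, whose human counterpart is often mutated in Diamond-Blackfan anemia, had 94.0 (89.6 to 98.6), 119 (115 to 124) and 40.04 CPM and a ratio of 1.27 (1.19 to 1.35). These 3 genes had no overlap between the control and doxorubicin levels. Rps14, which lies on the platform of the 40S subunit, had 146 (140 to 152), 182 (177 to 188) and 65.1 CPM and a ratio of 1.2502 (1.19 to 1.31). Fau, which encodes the 40S protein Rps30 fused to a ubiquitin-like protein, had 156 (150 to 161), 201 (195 to 207) and 72.2 CPM and a ratio of 1.29 (1.23 to 1.35). Both were highest in doxorubicin by CPM, without overlap.

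Rpsa (chromosome 9, 120127689 to 120132369, plus strand), a 40S assembly protein also described as a laminin receptor, had 159 (154 to 165), 171 (165 to 177) and 60.6 CPM and a ratio of 1.07 (1.02 to 1.13). Rps2 (chromosome 17, 24718116 to 24721929, plus strand), at the mRNA entry of the 40S subunit, had 163 (157 to 169), 171 (165 to 176) and 60.2 CPM and a ratio of 1.05 (0.996 to 1.10). The intervals of their levels overlap or touch between control and doxorubicin. The 16 remaining genes had ratios between 1.10 and 1.34, with 7 of them over 25% higher.

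In the doxorubicin plus ACY-1083 library the outcome depended on the scale. This comparison shares the doxorubicin library with the one above. By CPM, all 34 genes were lower than in doxorubicin, with all 34 intervals below 1 (51% of 16381 genes) and all 34 over 20% lower (47.9%), and the ratio of the sum was 0.363 (0.360 to 0.366). Counted as UMIs per nucleus, the sum had a ratio of 1.05 (1.04 to 1.06), with 30 of 34 genes higher (95.1% of all genes), 10 intervals above 1 (86.9%) and 1 below (0.787%). Set against the UMIs of genes with total intron length under 5000 bases, the ratio was 0.863 (0.856 to 0.870). The sum was thus lower, higher or lower than in doxorubicin as the scale changed. Nuclei of like depth gave other directions. From nuclei under 1000 UMIs to those with 4000 or more, the ratio per nucleus was 0.893, 0.861, 0.848 and 0.769. Against short-intron genes it was 1.18, 1.30, 1.37 and 1.10 in the same bins. The direction on both of these scales thus depended on the mix of depths.

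Per nucleus, Rpl5 had the highest ratio and was the only member over 25% higher (81.9% of all genes), at 1.39 (1.32 to 1.47) from 184 to 256 UMIs per 1000 nuclei. Rps15 followed with 1.22 (1.15 to 1.28), from 229.8 to 279 UMIs per 1000 nuclei, and Rpl4 had 1.17 (1.09 to 1.26). Rpl13 had the interval below 1, at 0.964 (0.931 to 0.997), from 572 to 551 UMIs per 1000 nuclei. The median log2 ratio per nucleus was 0.04 over the 34 genes beside 1.29 over all genes tested.

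The members are short genes, and intron length moved with the doxorubicin plus ACY-1083 comparison. Their total intron length in GENCODE vM21 ran from 24 bases in Rpl41 to 29055 in Rps14, with a median of 1566 beside 19459.5 for all genes tested. For genes outside the list, the median log2 CPM ratio of doxorubicin plus ACY-1083 to doxorubicin went from -1.48 under 500 bases of intron to 1.42 above 100000 bases. The members lay between -1.44 and -1.51 in each of the 5 bins that held any, near the other genes in the shortest bin and below them in the longer ones. Rpl11 and Rps14, the 2 members with 20000 to 100000 bases of intron, had a median of -1.44 where other genes had 0.13.

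Between doxorubicin and control the same bins differed little for other genes, with medians from -0.01 to -0.07. The members were at 0.20 to 0.38 in each bin. Other genes with at least 50 CPM and under 5000 bases of intron (538 genes) had a median of -0.01 and 8.36% over 25% higher, and the 31 members of that kind had a median of 0.32 and 48.4% over 25% higher. Other abundant genes with short introns thus had a median near 0 where the members did not. Exon length was not matched in this comparison. Its median was 1800 bases for the members and 4513.5 for all genes tested.

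**Figure D2:**
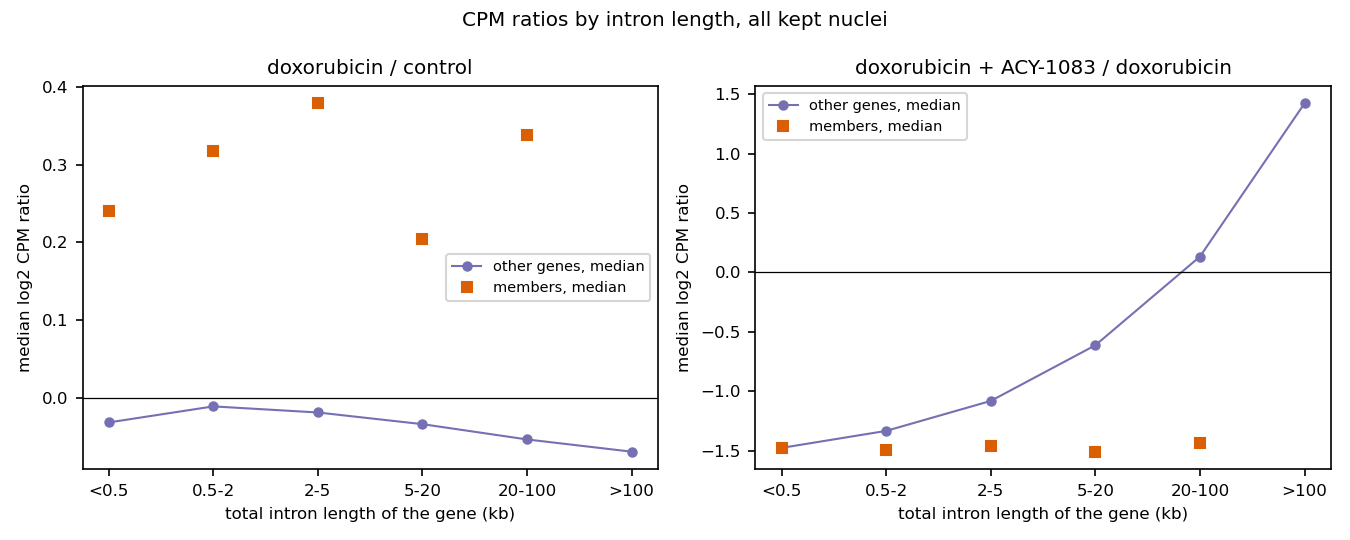
Median log2 CPM ratio by total intron length (kb) for other genes (line) and members (squares), doxorubicin to control on the left and doxorubicin plus ACY-1083 to doxorubicin on the right. The left line stays between -0.01 and -0.07 while the right one climbs from -1.48 to 1.42, and members stay near 0.3 and near -1.5.

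The share of ribosomal protein RNA differed between cell classes by more than between control and doxorubicin. Orders and ranges given here are limited to the 10 classes that had 100 or more nuclei in each library. By share of UMIs in control, astrocyte-like nuclei were highest at 0.836%, followed by fibroblast-like cells (0.692%), oligodendrocyte precursor-like (0.675%), oligodendrocyte-like (0.561%) and granule neuron-like nuclei (0.510%). Lower shares were found in microglia-like (0.434%), subicular or cortical neuron-like (0.400%), GABAergic neuron-like (0.361%), CA1-like (0.356%) and CA2/CA3-like nuclei (0.258%). The intervals of neighbours overlap between fibroblast-like cells (0.654 to 0.732) and oligodendrocyte precursor-like nuclei (0.642 to 0.709), and between GABAergic (0.352 to 0.371) and CA1-like nuclei (0.349 to 0.363). In the doxorubicin library the last 6 places were held by the same classes in the same order. Shares ran from 0.294% in CA2/CA3-like nuclei to 0.961% in fibroblast-like cells there, and from 0.114% in CA2/CA3-like to 0.543% in oligodendrocyte-like nuclei of the doxorubicin plus ACY-1083 library. Of these 10 classes, CA2/CA3-like nuclei were thus lowest in each library, and astrocyte-like nuclei were among the 3 highest in each.

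This order is that of a share, and it ran against depth. CA2/CA3-like nuclei had a median of 3045 UMIs in control and astrocyte-like nuclei 804, and per nucleus the members had 8.13 and 7.43 UMIs. Over the 10 classes of the control library the count per nucleus ran from 6.08 in oligodendrocyte precursor-like to 9.36 in microglia-like nuclei. The member share was also lower in deeper nuclei, all classes together, from 0.838% in control nuclei under 1000 UMIs to 0.254% in those with 4000 or more, and from 1.06% to 0.287% in doxorubicin.

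**Figure D3:**
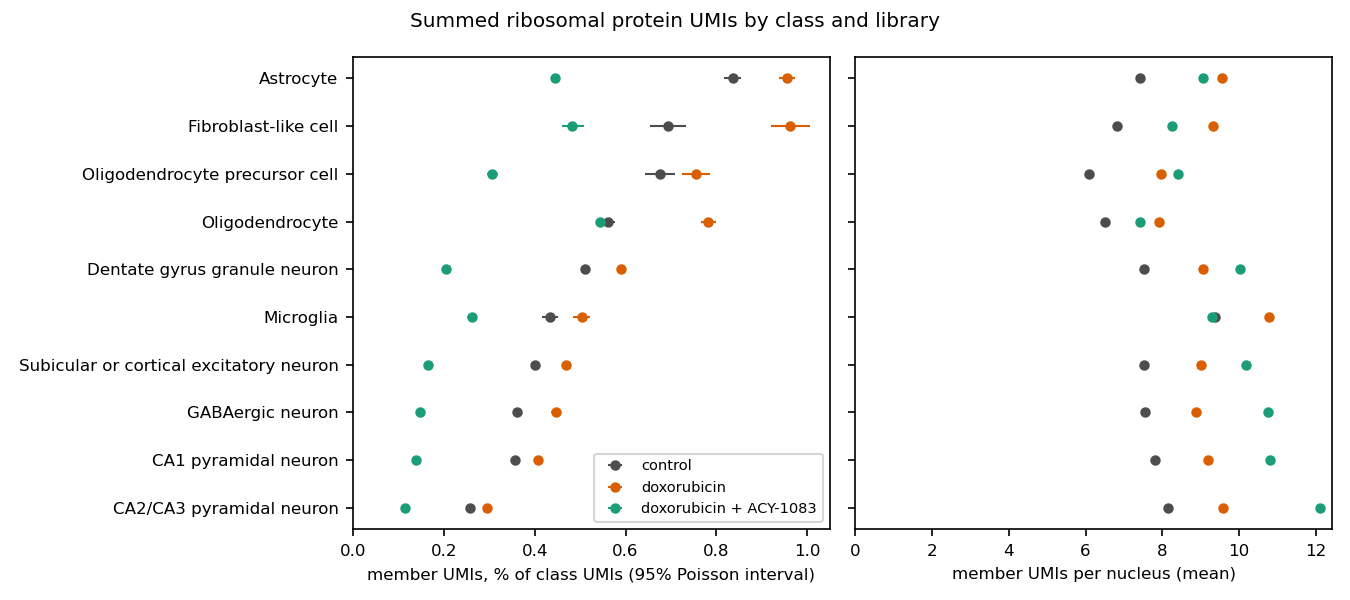
Summed member UMIs by class as percent of the class's UMIs (left, 95% Poisson intervals) and as mean UMIs per nucleus (right), 1 point per library. Shares run from 0.258% to 0.836% across the 10 compared classes of the control library while UMIs per nucleus run from 6.08 to 9.36.

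All 10 compared classes had a higher member share in doxorubicin than in control, with intervals above 1 in all 10. Clusters of control and doxorubicin were formed together, so the same clusters hold each class in both. The ratio was 1.39 (1.35 to 1.44) in oligodendrocyte-like nuclei and 1.39 (1.29 to 1.49) in fibroblast-like cells, 1.24 (1.19 to 1.28) in GABAergic neuron-like nuclei, and 1.12 (1.05 to 1.19) to 1.17 (1.14 to 1.20) in the other 7. The oligodendrocyte-like interval does not overlap those of the neuron classes. Those nuclei were shallow, with medians of 705 and 676 UMIs, and their member median log2 ratio of 0.50 was 0.13 when nuclei were thinned to 1000 UMIs, a step that leaves out the 2886, 3264 and 1077 nuclei of the whole libraries under that depth. Per nucleus the oligodendrocyte-like ratio was 1.22 (1.18 to 1.26), within the range of the other classes.

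The number of members over 25% higher is read beside the share of all genes of the class that were. In oligodendrocyte-like nuclei 29 of 34 genes passed (14% of all genes), in GABAergic neuron-like 17 of 34 (8.83%), and in fibroblast-like cells 10 of the 15 genes with at least 100 UMIs (22.2%). Granule neuron-like nuclei had 11 of 34 (5.29%), subicular or cortical neuron-like 11 of 34 (5.54%), CA1-like 10 of 34 (5.29%) and CA2/CA3-like 8 of 33 (6.56%). Microglia-like nuclei had 12 of 28 (8.49%), oligodendrocyte precursor-like 8 of 20 (9.99%) and astrocyte-like 8 of 34 (10.2%). The astrocyte-like count is thus the nearest to its background.

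Most pairs of a gene and a class were higher in doxorubicin. Over gene and class pairs with at least 100 UMIs, 267 of 300 were higher in doxorubicin (42% of the 47069 pairs of all genes), 134 had an interval above 1 (5.23%) and 1 had an interval below 1 (8.54%). That pair was Rpl6 in granule neuron-like nuclei, which had 339, 306 and 119 CPM and a ratio of 0.903 (0.834 to 0.978). Rpl6 was lower in 8 of 10 classes, the exceptions being fibroblast-like cells and oligodendrocyte precursor-like nuclei. Rpl38 was higher in all 9 classes where it was counted, led by oligodendrocyte-like nuclei with 133, 220.1 and 166 CPM and a ratio of 1.66 (1.34 to 2.07). Rpl23 was higher in 10 of 10 and had an interval above 1 in 9, the exception being CA2/CA3-like nuclei at 1.05 (0.789 to 1.39).

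Rpsa was split, with 5 classes higher and 5 lower, but only 2 had an interval above 1 and 0 had one below. It had 222, 410 and 195 CPM in fibroblast-like cells, a ratio of 1.84 (1.24 to 2.77). In granule neuron-like nuclei it had 182, 172 and 60.9 CPM, a ratio of 0.945 (0.848 to 1.05), whose interval holds 1. Among members with at least 100 UMIs in control and doxorubicin together, Rpsa led in fibroblast-like cells, and other classes had leaders of their own. Below that floor in fibroblast-like cells, Rpl27 had 2.86 (1.51 to 5.80), on 13 and 43 UMIs. Rps15 had 0.913 (0.567 to 1.47) there, on 37 and 39 UMIs. The member with the highest ratio bound was Rpl38 in astrocyte-like, granule neuron-like and subicular or cortical nuclei, and Rpl23 in CA1-like nuclei at 1.57 (1.33 to 1.85). It was Rpl26 in GABAergic neuron-like nuclei at 1.79 (1.41 to 2.28), Rps29 in CA2/CA3-like nuclei at 1.62 (1.26 to 2.09) and Rpl41 in oligodendrocyte-like nuclei at 1.67 (1.41 to 1.998). Rpl37 led both in microglia-like nuclei at 1.59 (1.11 to 2.30) and in oligodendrocyte precursor-like nuclei at 1.73 (1.15 to 2.66). With the same floor, the lowest members were Rpl6 in 4 classes, Rps2 in astrocyte-like and microglia-like nuclei, and Rpl4, Rpl8, Rps21 and Rps24 in 1 class each.

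**Figure D4:**
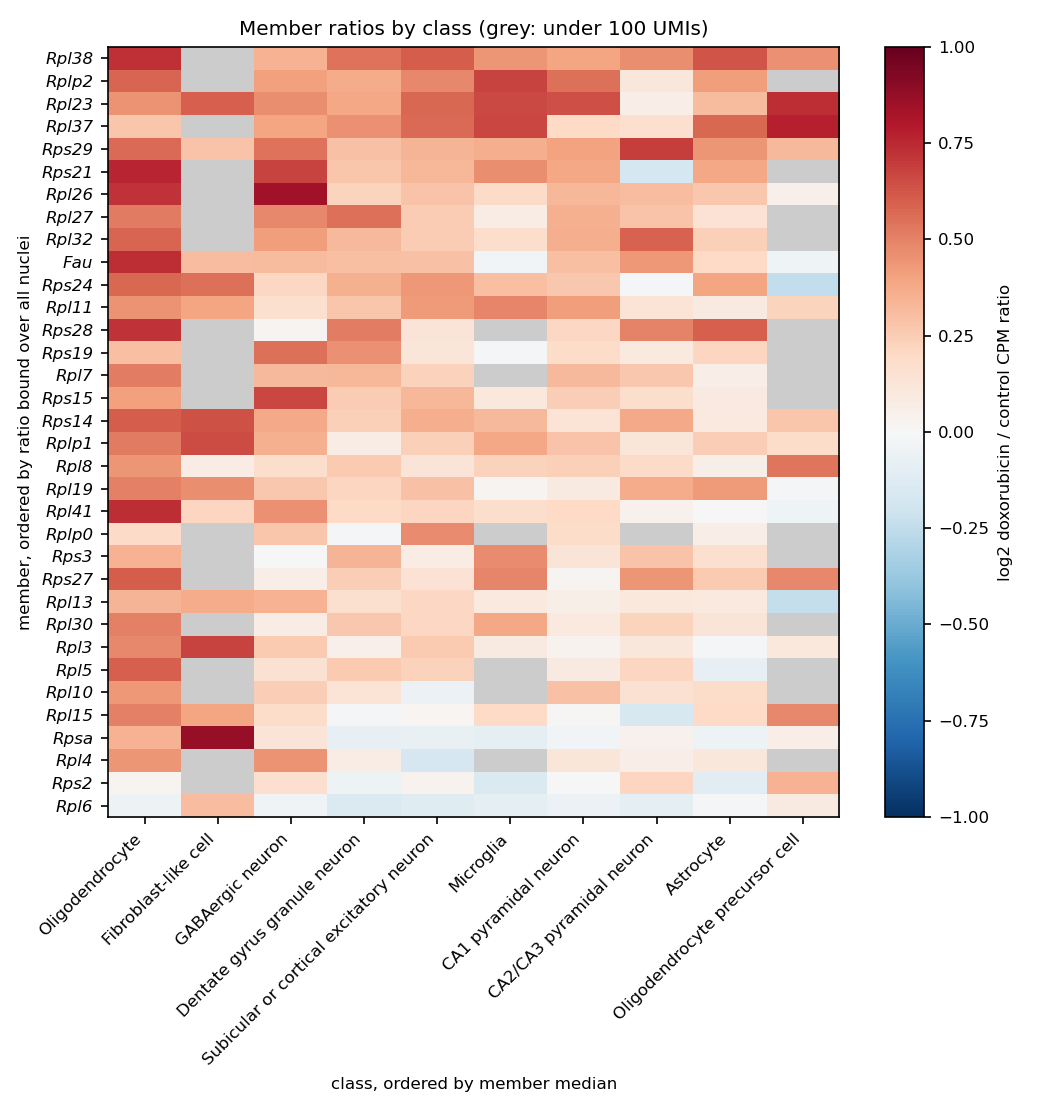
Log2 doxorubicin to control CPM ratio of each member (lines, ordered by ratio over all nuclei) in each class (columns, ordered by the member median), from blue at -1 to red at 1, with grey for under 100 UMIs. Red prevails in the oligodendrocyte column, and the Rpl6 line at the bottom is near white or blue in 8 of 10 classes.

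In the doxorubicin plus ACY-1083 library each class was taken from clusters of that library alone, so different clusters hold it there. By CPM the member share was lower than in doxorubicin in all 10 classes, from a ratio of 0.330 (0.320 to 0.341) in GABAergic to 0.694 (0.675 to 0.714) in oligodendrocyte-like nuclei. Per nucleus the interval was above 1 in 5 classes, all of them neurons, led by CA2/CA3-like nuclei at 1.27 (1.22 to 1.31), and below 1 in 4, the lowest being microglia-like nuclei at 0.862 (0.817 to 0.908). Oligodendrocyte precursor-like nuclei, at 1.05 (0.996 to 1.11), had an interval that holds 1. The gap in depth between these libraries also differed by class. Median UMIs went from 2098 in doxorubicin to 6968.5 in CA1-like and from 3128.5 to 9341 in CA2/CA3-like nuclei. They went from 676 to 1251 in oligodendrocyte-like and from 1417 to 1586 in microglia-like nuclei. The part of depth in the ratios per nucleus was not tested. Against short-intron genes the interval was below 1 in 8 classes and above 1 in microglia-like (1.06) and oligodendrocyte-like nuclei (1.14).

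Some members made up unequal parts of the sum in different classes. Of the 34, 5 had at least 50 UMIs in every class, and Rps29 had the widest range in control, 4.61% of the member sum in fibroblast-like cells and 2.38% in CA2/CA3-like nuclei. In doxorubicin these were 4.06% and 3.38%, a narrower range. Rpl13 was 10.0% of the sum in oligodendrocyte precursor-like and 5.96% in GABAergic neuron-like nuclei, and 7.60% and 6.15% in doxorubicin. Rpl41 was 5.13% in CA2/CA3-like and 3.62% in oligodendrocyte-like nuclei, and 4.62% and 4.34% in doxorubicin. The classes of each pair were the extremes of control, so other classes can be the extremes in doxorubicin. Over all compared classes, the log2 range was 0.50 in control and 0.47 in doxorubicin for Rpl41. It was 0.75 and 0.39 for Rpl13, 0.95 and 0.26 for Rps29, and 0.47 and 0.42 for Fau. The log2 range over classes of Rplp1, another of the 5, was 0.45 in control and wider in doxorubicin, at 0.69.

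Other abundant genes followed the member sum across classes. Among 210 other genes with enough UMIs, those with the closest pattern of log2(CPM + 1) over the 10 control classes included Gapdh (Pearson r = 0.989, and 0.984 in doxorubicin), Chchd2, Ubb and Cox4i1 (r from 0.983 to 0.984). These points share libraries, depth and the class totals, and the values are descriptions across 10 classes. Gapdh, the glycolytic enzyme, had a doxorubicin to control ratio of 1.14 (1.09 to 1.19). The mitochondrial proteins Chchd2 and Cox4i1 had 1.41 (1.35 to 1.48) and 1.38 (1.33 to 1.43).

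Several measures moved with the higher member share in doxorubicin. Mitochondrially encoded genes, a sign of cytoplasmic RNA in a nuclear preparation, were 0.0404%, 0.0509% and 0.0140% of UMIs, and their share was higher in doxorubicin in 9 of 10 classes. The 10 markers of choroid plexus epithelium, summed, were higher in doxorubicin in 10 of 10 classes, at 739 to 2748 CPM in control, 1515 to 5639 in doxorubicin and 604 to 4294 in doxorubicin plus ACY-1083, with 9 or 10 of the 10 markers found in each class of the first 2 libraries. Within nuclei of like mitochondrial share, the doxorubicin to control ratio of the members was 1.18, 1.20, 1.11 and 1.37 from the lowest bin to the highest. Within nuclei of like depth it was 1.27, 1.22, 1.20 and 1.13. The ratio of the share was thus above 1 in all 8 bins, and the part of free RNA in it was not tested. The upper mitochondrial bins were small, with 51 control and 99 doxorubicin nuclei at 0.5% to 1%, and 37 and 36 above that. Per nucleus the ratio was 0.839 (0.770 to 0.915) in the bin of 0.5% to 1% and above 1 in every other bin.

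An unnamed cluster led by mitochondrially encoded genes held 143 control and 376 doxorubicin nuclei. Its member share was 1.249% and 1.245%, with a ratio of 0.997 (0.951 to 1.04), and it had 0.4996% and 0.279% of mitochondrially encoded UMIs. Without that cluster the ratio over the remaining nuclei was 1.21. In 2 other unnamed clusters, led by Col6a1 and Prkcd, the ratio was 1.13 (1.10 to 1.17) and 1.22 (1.15 to 1.30).

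**Figure D5:**
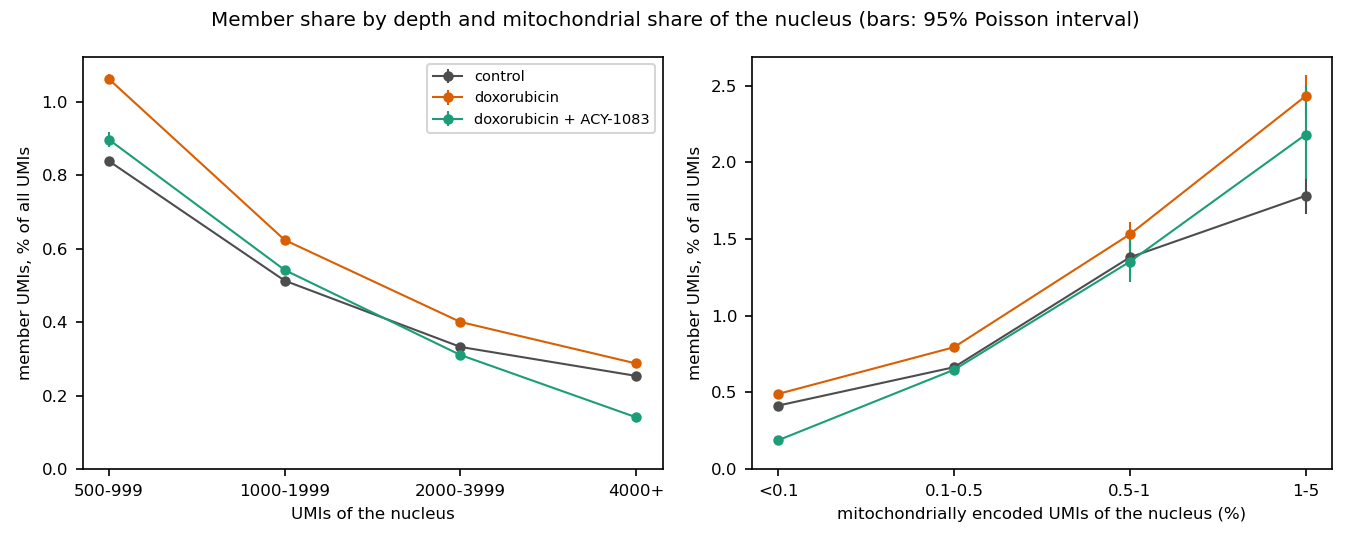
Member share of UMIs (percent, 95% Poisson intervals) by UMIs per nucleus (left) and by mitochondrially encoded share (right) in each library. In each depth bin doxorubicin lies above control, and shares come down from 0.838% to 0.254% in control as depth goes up.

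Other genes of translation give the setting of these values. The 45 other cytosolic ribosomal protein genes had a median log2 ratio of 0.27 between doxorubicin and control, with 43 intervals above 1 and 0 below, from Rpl29 at 1.03 to Rpl39 at 1.57. The nascent chain and TOP genes Naca, Btf3, Tpt1 and Rack1 had a median of 0.34, with all 4 intervals above 1. The 7 elongation factor genes had 0.08 (3 above, 0 below), from Eef1d at 0.932 to Eef1a1 at 1.14, and the 30 initiation factor genes 0.03 (9 above, 4 below). The 78 mitochondrial ribosomal protein genes, which serve the separate ribosome of mitochondria, had 0.06 (18 above, 5 below).

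Genes that build ribosomes or control them had medians near or below 0. The 22 ribosome biogenesis genes had a median of -0.12, with 2 intervals above 1 and 8 below (9.08% and 19.2% of all genes), and Nop56, of the box C/D small nucleolar particles, had a ratio of 0.829. The 13 counted genes of mTORC1 and TOP mRNA control had -0.12, with 0 above and 6 below, from Larp1b at 0.804 to Rheb at 1.06. The 7 host genes of small nucleolar RNAs outside the family had 0.05 (2 above, 0 below). Mitochondrially encoded genes had 0.38, with 9 of 11 intervals above 1. Of the 6 genes with near-identical names that are pseudogenes or paralogs of members, 3 had enough UMIs, and 1 of them, Rps27l, had an interval above 1 at 1.28.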

How the data were processed

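UMIs were measured in nuclei of 3 pooled libraries of mouse hippocampus (10x 3' version 3 chemistry). The deposited values are raw UMI counts per gene and barcode without normalization, per the file headers made with Cell Ranger 4.0.0 (control, doxorubicin) and 5.0.0 (doxorubicin plus ACY-1083), whereas mm10 and Cell Ranger 6.0.0 are named in the submitters' processing notes. Intron counting and the handling of multi-mapping reads are not given in the sources used here.

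Nuclei with at least 300 genes, under 5% mitochondrial UMIs and a Scrublet score under 0.25 were kept (scanpy 1.11.5). The score threshold was fixed because the automatic one marked under 0.5% of barcodes. It marked 452, 573 and 344 barcodes (4.14%, 4.69% and 2.82%). Counts were scaled to 10000 per nucleus, and 2000 variable genes, 30 components, 15 neighbours and Leiden resolution 1 gave 17 clusters of control with doxorubicin and 28 of doxorubicin plus ACY-1083. The last was clustered alone because a joint clustering parted the libraries and merged CA1 with CA3. A cluster was named by markers against the other nuclei of its library: 33 were named, 9 unnamed and 3 set apart for depth. Of 16 classes named, 10 had 100 or more nuclei in each library and were compared.

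UMIs were summed per library and class. Levels have exact Poisson intervals and ratios exact Clopper-Pearson intervals conditional on the sum (95%, scipy 1.17.1), with 0.5 counts added for log2. The steps were checked on simulated data. GENCODE vM21 matched 32235 of 32285 genes. Full values are given for the 4 members with the highest and the 4 with the lowest ratio bound and for a fixed set chosen by role. The members and gene lists were chosen with earlier results of these data known. Alternatives covered scaling, filters, depth, clustering and class weights.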

Additional observations from a re-analysis of the deposited data

How the results depend on the processing

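The member sum of doxorubicin against control was 1.22. It was 1.24 without Malat1 in the total, 1.26 with scaling by the median of gene ratios, 1.20 with at least 600 genes per nucleus, 1.20 with nuclei thinned to 1000 UMIs, 1.20 with classes weighted by control nuclei and, in an alternative chosen after seeing the data, 1.21 without the cluster led by mitochondrially encoded genes. All 11 alternatives gave 1.20 to 1.26. Rpl4 changed sign when thinned, at 0.988.

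The sum of doxorubicin plus ACY-1083 against doxorubicin, 0.363 by CPM, was 0.301 without Malat1, 0.437 with median scaling, 0.393 with at least 600 genes, 0.531 thinned, 0.869 in nuclei with 1000 to 2000 UMIs, 0.863 against short-intron genes and 1.05 per nucleus, which reversed it. It was 0.374 without the cluster led by mitochondrially encoded genes and 0.366 without unnamed clusters, both chosen after seeing the data.

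The member median log2 ratio between doxorubicin and control stayed within 0.30 and 0.36. Members higher numbered 26 to 33, the 26 being of 27 genes with at least 100 CPM. The classes with a median above 0 were 10 of 10, and all of the 8 to 11 classes kept under other clusterings, thinning or kept doublets, but only 1 class held 100 nuclei per library at 1000 to 2000 UMIs, and it was above 0. Of 253 values of single members and classes under alternatives, 249 stayed within their band with the same sign, 3 moved and 1 reversed. The band was the counting interval for single members and sums. For medians, those of classes included, it was the median of the members' interval bounds, which is wider than the counting error of a median. Of 67 values of the summed and counted results, 51 stayed, 15 moved and 1 reversed, with counts judged by a fold limit. The members with an interval above 1 numbered 27 when thinned, against 32, and those over 25% higher 14 to 21, against 17. At Leiden resolution 0.5, without ribosomal protein genes and with the 3 libraries together, CA1 and CA3 neurons fell in merged clusters and were not compared.

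No paired analysis was possible because each group has 1 library and the labels give no shared replicate. The number of mice, the depth gap of the third library and the software versions limit every comparison, and treatment cannot be told apart from preparation.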

Other observations

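Classes with fewer than 100 kept nuclei in a library were left out of the comparisons, and the member shares of 4 of the 6 are given here. The other 2, pericyte-like and thalamic or habenular neuron-like nuclei, were named only among clusters of the doxorubicin plus ACY-1083 library. Endothelial-like nuclei (59, 100 and 86 nuclei) had 1.15%, 1.51% and 0.919% of their UMIs from the 34 genes. Ependymal-like nuclei (30, 40 and 26) had 0.792%, 1.20% and 0.432%, choroid plexus-like nuclei (98, 138 and 122) 0.595%, 0.799% and 0.339%, and Cajal-Retzius-like nuclei (79, 92 and 73) 0.623%, 0.704% and 0.343%. Each of these 4 had its highest share in the doxorubicin library and its lowest in doxorubicin plus ACY-1083. The Cajal-Retzius-like intervals overlap between control (0.571 to 0.678) and doxorubicin (0.655 to 0.757). Per nucleus, doxorubicin plus ACY-1083 was lowest only in endothelial-like nuclei (14.1, 16.3 and 13.2 UMIs). It was highest in choroid plexus-like nuclei (7.79, 10.7 and 12.2).

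A cluster of 618 nuclei of the doxorubicin plus ACY-1083 library, led by Gm42418, had a member share of 0.765%, beside 0.197% over the whole library, and 0.0923% of mitochondrially encoded UMIs, beside 0.0140%.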
